A study of Mus with 12 samples.

Results

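The subject is a set of 10 genes of the PPAR (peroxisome proliferator-activated receptor) system and fatty acid oxidation. They comprise the receptor genes Pparg, Ppard and Rxra, the fatty acid binding protein genes Fabp4 and Fabp5, the oxidation genes Cpt1a, Cpt2 and Acadvl, and the PPAR target genes Angptl4 and Pdk4. The members were found by gene symbol, and each symbol matched 1 row of a table of 27294 genes. Their levels came from RNA sequencing of mouse primary peritoneal macrophages, in 4 groups of n = 3 libraries. The groups were knockout (KO) cells with oxidised low-density lipoprotein (oxLDL), wild-type (WT) cells with oxLDL, KO cells without a treatment label, and WT cells without a treatment label. The last 2 groups are called untreated. WEE1, which the title of the series puts in macrophages and atherosclerosis, is a kinase that delays mitosis, while the genotype label reads only KO. The deleted gene and the part of it that was removed, any Cre driver, the mouse strain, sex and age, and the oxLDL dose and time are details not given in the sources used here. The titles of the treated libraries say LDL where the treatment label and the column names say oxLDL.

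PPAR receptors are transcription factors of the nuclear receptor family that bind fatty acids and their derivatives. Each pairs on DNA with a retinoid X receptor, such as the product of Rxra, and the pair drives genes of lipid uptake, storage and oxidation. Fatty acid binding proteins carry fatty acids inside the cell, including to these receptors. For oxidation in mitochondria, CPT1 and CPT2 pass long-chain fatty acids across the mitochondrial membranes and very long-chain acyl-CoA dehydrogenase, the product of Acadvl, starts the oxidation cycle. In macrophages, PPARγ is known for lipid handling and for restraint of inflammatory genes, and its ligands include fatty acids carried in by oxLDL.

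Library totals ran from 53588814 to 76809931 counts, and replicate 2 of both WT groups was the shallowest. Wee1 had 1.25 to 1.60 FPKM (fragments per kilobase of transcript, scaled for library size) in KO libraries with oxLDL, 1.44 to 1.78 FPKM in WT libraries with oxLDL, 1.22 to 1.63 FPKM in untreated KO libraries and 2.80 to 3.25 FPKM in untreated WT libraries. Wee1 was lower in untreated KO than in untreated WT (-0.93 ± 0.14 log2; edgeR adjusted p = 0.000139) but present in all libraries. With oxLDL, KO and WT libraries overlapped in FPKM, and the fitted -0.53 ± 0.14 log2 (edgeR adjusted p = 0.00587) became -0.23 and was not called with library totals alone. The KO libraries did not separate by treatment label, and whether they were treated as labelled cannot be checked from the sources used here. Between KO libraries of different label the mean squared difference per gene was 14.5 to 37.8 times counting error, against 13.1 to 34.8 between KO libraries of the same label. Between WT libraries the same quantity was 696 to 977 across labels and 11.6 to 30.5 within a label. All 7 genes of the macrophage list had a mean at or above 1 FPKM in every group, but several differed between genotypes. The sum of the 7, mostly Lyz2, was 10640 to 11280 FPKM in KO with oxLDL, 14590 to 15590 in WT with oxLDL, 11070 to 11780 in untreated KO and 20990 to 21390 in untreated WT. Cd68 had means of 2002 FPKM in KO with oxLDL, 1376 in WT with oxLDL, 2001 in untreated KO and 1629 in untreated WT, so it was higher in KO. Adgre1 was lower in KO, with means of 152, 762, 158 and 545 FPKM in the same order of groups, and so was Fcgr1, with 9.28, 131, 9.32 and 40.9 FPKM. Csf1r was alike in both genotypes with oxLDL and lower in untreated KO, with 134, 137, 131 and 273 FPKM in that order. Itgam (156, 172, 155 and 202 FPKM) and Mertk (47.3, 58.7, 48.4 and 57.0 FPKM) were lower in KO by less than Adgre1 and Fcgr1. The 7 large peritoneal macrophage genes were low, with sums of 3.71 to 4.17 FPKM in KO with oxLDL, 4.41 to 5.45 in WT with oxLDL, 3.92 to 4.18 in untreated KO and 6.27 to 6.48 in untreated WT. Among them Timd4 had means of 0.0935 and 0.0126 FPKM in KO with oxLDL and untreated KO, against 1.75 and 1.47 FPKM in the WT groups. The others did not share this gap. With oxLDL, Icam2 (1.31 against 0.891 FPKM) and Vsig4 (1.09 against 0.718) were higher in KO than in WT, and Prg4 was lower (1.03 against 1.30). Untreated, Icam2 (1.41 against 2.15) and Prg4 (0.948 against 1.18) were lower in KO, and Vsig4 was close (1.24 against 1.21). Gata6, Selp and Alox15 did not exceed a mean of 0.249 FPKM. Of 8 adipocyte markers 4 were in the table, and their sum was 2.38 to 2.66 FPKM in KO with oxLDL, 4.04 to 4.90 in WT with oxLDL, 2.38 to 2.70 in untreated KO and 4.68 to 4.73 in untreated WT. Nearly all of it was Lipe, while the defining adipocyte genes Adipoq and Plin1 had 0 to 15 counts per group. Summed B cell, T and NK cell, neutrophil, mast cell and mesothelial or fibroblast markers did not exceed 10.5 FPKM in any library. All 6 genes of the T and NK list together had 0.102 to 0.239 FPKM in KO libraries, with Cd3e, Trac and Ncr1 at 0 counts. In WT libraries they had 1.46 to 1.88 FPKM. Most of the WT sum was Ncr1 (means of 0.725 FPKM with oxLDL and 0.761 untreated) and Lck (0.808 and 0.404). Cd3e had 0.0321 and 0.0595 FPKM in the same WT groups, and Cd3d did not exceed a mean of 0.0182 FPKM in any group. The 5 mast cell genes together had 0.888 to 1.43 FPKM in KO and 2.80 to 5.29 FPKM in WT libraries. Of 6 neutrophil genes 4 were in the table, and their sum was 1.33 to 1.68 FPKM in KO and 2.82 to 4.10 FPKM in WT libraries, nearly all of it S100a8. The 5 B cell genes went the other way with oxLDL, with 1.84 to 2.08 FPKM in KO and 0.91 to 1.16 FPKM in WT libraries, and untreated libraries overlapped, with 1.69 to 2.53 FPKM in KO and 1.03 to 1.74 FPKM in WT. The part of these shifts in the genotype differences was not tested.

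With oxLDL, WT macrophages held far less Pparg and Fabp4, less Fabp5, Rxra and Acadvl, and more Ppard relative to other genes, than untreated WT macrophages. No such change was called in KO macrophages. Untreated KO macrophages already had more Pparg, Fabp4 and Angptl4 than untreated WT. Of the 10 members 9 had enough counts to be tested, and Pdk4 was not. A gene was called at an adjusted p under 0.05 in edgeR's quasi-likelihood test. With oxLDL in WT, 1 member was higher and 6 were lower, where 51.2% of all genes tested were called, 23.9% higher and 27.2% lower. Between KO and WT with oxLDL, 7 members were higher and 1 was lower in KO, where 57.9% of all genes were called, 30.6% higher and 27.4% lower. Between untreated KO and WT, 3 members were higher and 0 lower in KO, which is near the background of 31% called, and 14.8% called higher. For oxLDL in KO, 0 of 9 members were called, against 0.0116% of all genes. The median log2 change of the 9 members was -0.47 with oxLDL in WT and 0.75 in KO against WT with oxLDL, beside -0.06 and 0.05 over all genes tested. The 2 comparisons with oxLDL share the WT libraries with oxLDL, so their opposite signs are not independent. In bulk RNA, fewer cells of a type and less RNA per cell cannot be told apart.

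**Figure D1:**
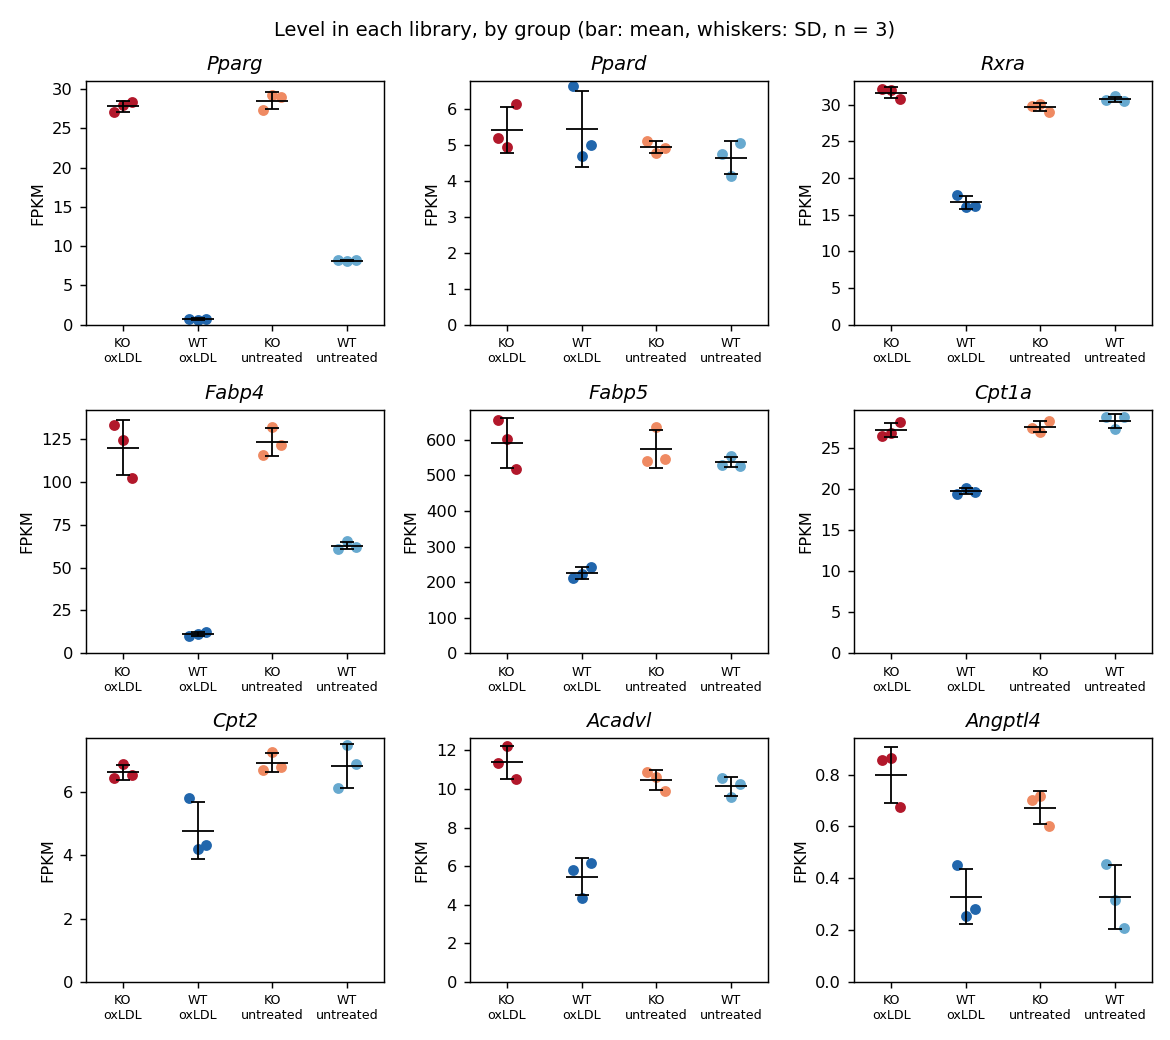
Level of 9 members in FPKM (vertical axes, each from 0) in the 3 libraries of each group (points), with mean and SD. The WT libraries with oxLDL sit apart for Pparg, Fabp4, Fabp5, Rxra, Cpt1a, Cpt2 and Acadvl, and both KO groups overlap for every gene shown except Rxra.

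The fitted changes are on the TMM scale, which trims genes of extreme change or abundance and takes most of the rest as unchanged. FPKM is not corrected in this way. Whether most genes were unchanged was not tested, and 51.2% were called with oxLDL in WT and 57.9% in KO against WT with oxLDL. The scale bears on the smaller changes. With library totals alone, the median gene moved by -0.46 log2 with oxLDL in WT, by 0.36 in KO against WT with oxLDL and by -0.12 in untreated KO against WT. With TMM these medians were -0.06, 0.05 and -0.01. The share of called genes that were higher moved with it, and with library totals it was 21.1% for oxLDL in WT, against 46.8% with TMM. For KO against WT with oxLDL it was 69.5% with library totals and 52.8% with TMM, for untreated KO against WT 31.5% and 47.8%, and for the difference between the oxLDL changes of KO and WT 79.6% and 53%.

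Pparg, which encodes the receptor PPARγ, had the widest range of the 9 members tested. The gene lies on chromosome 6, 115360951 to 115490399 (ENSMUSG00000000440, plus strand, GRCm38), and an overlapping antisense gene had 6 counts over the 12 libraries. Pparg had 27.0, 28.0 and 28.3 FPKM in KO with oxLDL, 0.771, 0.613 and 0.758 FPKM in WT cells with oxLDL, 27.3, 29.3 and 28.9 FPKM in untreated KO, and 8.20, 8.10 and 8.18 FPKM in untreated WT. No library of one genotype reached the other, and no WT library with oxLDL reached an untreated one. With oxLDL in WT, Pparg fell by 3.09 ± 0.08 on the log2 scale (SE; edgeR adjusted p = 2.76e-13), which is 8.49-fold. KO with oxLDL exceeded WT with oxLDL by 4.96 ± 0.08 log2, or 31.1-fold (edgeR adjusted p = 7.16e-16). Without treatment it was 1.91 ± 0.06 log2 higher in KO, or 3.76-fold (edgeR adjusted p = 9.12e-12). In rank, Pparg was between the 1227th and 1336th most abundant gene of the table in KO libraries, between the 10265th and 10786th in WT with oxLDL, and between the 4474th and 4555th in untreated WT.

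Ppard, which encodes the broadly expressed receptor PPARδ (chromosome 17, 28232700 to 28301474, ENSMUSG00000002250), moved little. It had 5.17, 4.93 and 6.13 FPKM in KO with oxLDL, 6.64, 4.67 and 5.0 FPKM in WT cells with oxLDL, 5.10, 4.76 and 4.91 FPKM in untreated KO, and 4.75, 4.13 and 5.04 FPKM in untreated WT. In FPKM each group overlapped the next in the order of means, with the highest value in replicate 1 of WT with oxLDL. On the TMM scale Ppard rose by 0.64 ± 0.12 log2 with oxLDL in WT (edgeR adjusted p = 0.000488), but the rise was 0.23 and not called with library totals alone (adjusted p = 0.12). It was lower in KO against WT with oxLDL by -0.31 ± 0.12 log2 (edgeR adjusted p = 0.0413). That call was kept in 6 of 20 alternatives, lost in 12, and lost with a turn to 0.0017 and 0.0034 in the 2 with limma on FPKM. Among these, it was lost without KO replicate 1 or 2 with oxLDL, WT replicate 1 with oxLDL, any of the 3 untreated KO libraries, or untreated WT replicate 1 or 3 (-0.31 to -0.15). Untreated KO and WT were not told apart (0.19 log2, 95% interval -0.07 to 0.45). The ratio of Pparg to Ppard in FPKM, a length-corrected comparison within each library, was 5.17 ± 0.53 in KO with oxLDL, 0.133 ± 0.018 in WT with oxLDL, 5.80 ± 0.40 in untreated KO and 1.77 ± 0.17 in untreated WT (SD, n = 3 each). Pparg thus exceeded Ppard in 3 of the groups and was below it in WT with oxLDL.

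Rxra, the gene of the retinoid X receptor α that partners PPARs and other nuclear receptors (chromosome 2, 27676440 to 27762957, ENSMUSG00000015846), was lower in 1 group. It had 32.2, 32.0 and 30.8 FPKM in KO with oxLDL, 17.7, 16.1 and 16.2 FPKM in WT cells with oxLDL, 29.8, 30.1 and 29.1 FPKM in untreated KO, and 30.6, 31.1 and 30.5 FPKM in untreated WT. WT libraries with oxLDL lay below all others. KO libraries with oxLDL all lay above untreated KO libraries, by a fitted 0.09 ± 0.04 log2 that was not called (edgeR adjusted p = 0.71). Rxra fell by 0.47 ± 0.04 on the log2 scale with oxLDL in WT (edgeR adjusted p = 3.67e-07), and by 0.88 with library totals alone. KO exceeded WT with oxLDL by 0.62 ± 0.04 log2 (edgeR adjusted p = 1.15e-08). Untreated KO and WT differed by 0.06 log2 (95% interval -0.04 to 0.15), although their FPKM ranges did not overlap and were lower in KO, and with library totals alone the difference was -0.05.

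Fabp4 encodes the binding protein of adipocytes and macrophages that is a classical PPARγ target (chromosome 3, 10204088 to 10208576, minus strand, ENSMUSG00000062515). It had 133, 125 and 102 FPKM in KO with oxLDL, 10.1, 11.3 and 12.5 FPKM in WT cells with oxLDL, 116, 132 and 122 FPKM in untreated KO, and 61.1, 65.5 and 62.1 FPKM in untreated WT. Its groups fell in the same order as those of Pparg, with both KO groups overlapping and both WT groups apart from all others. With oxLDL in WT, Fabp4 fell by 2.06 ± 0.10 on the log2 scale, or 4.18-fold (edgeR adjusted p = 1.65e-10). With oxLDL it was 3.10 ± 0.10 log2 higher in KO than in WT, or 8.60-fold (edgeR adjusted p = 1.18e-12), and in untreated KO against WT 1.08 ± 0.09 log2 higher, or 2.11-fold (edgeR adjusted p = 3.18e-07).

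Fabp5, the gene of the epidermal-type binding protein (chromosome 3, 10012548 to 10016607, plus strand, ENSMUSG00000027533), was the most abundant member. It had 657, 603 and 517 FPKM in KO with oxLDL, 211, 224 and 243 FPKM in WT cells with oxLDL, 541, 636 and 545 FPKM in untreated KO, and 531, 555 and 527 FPKM in untreated WT. Libraries of WT with oxLDL were lowest, and both KO groups and untreated WT overlapped. Fabp5 fell by 0.84 ± 0.08 on the log2 scale with oxLDL in WT (edgeR adjusted p = 9.08e-07) and was 1.09 ± 0.08 log2 higher in KO against WT with oxLDL (edgeR adjusted p = 3.93e-08). The untreated difference between KO and WT was 0.20 ± 0.08 log2 and was not called (edgeR adjusted p = 0.0909). It passed with DESeq2, upper-quartile scaling, a fit of those 2 groups alone, and without KO replicate 3 with oxLDL (0.20 to 0.24 log2). In mean FPKM, which is not corrected by TMM, the difference was 0.09 log2. Within libraries the ratio of Fabp5 to Fabp4 was 4.94 ± 0.11 in KO with oxLDL, 20.02 ± 0.75 in WT with oxLDL, 4.65 ± 0.17 in untreated KO and 8.55 ± 0.12 in untreated WT (SD, n = 3 each). A listed pseudogene of Fabp5 had 2 counts over the 12 libraries, and how the authors' counting treated reads shared with other copies is not given in the sources used here.

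Of 7 other fatty acid binding protein genes, 4 were in the table and 2 had enough counts to be tested, and these went opposite ways. Fabp3, the heart-type protein, had 13.8 ± 1.8 FPKM in KO with oxLDL, 120 ± 12 FPKM in WT with oxLDL, 14.2 ± 0.66 FPKM in untreated KO and 34.3 ± 1.2 FPKM in untreated WT (SD, n = 3 each). It rose by 2.22 ± 0.09 log2 with oxLDL in WT (edgeR adjusted p = 5.47e-11) and was lower in KO, at -3.43 ± 0.10 log2 with oxLDL and -1.17 ± 0.09 untreated. Fabp7, the brain-type protein, fell by 1.26 ± 0.13 on the log2 scale with oxLDL in WT and was higher in KO, at 2.23 ± 0.13 log2 with oxLDL and 0.95 ± 0.12 untreated. The FPKM of Fabp3, Fabp4, Fabp5 and Fabp7 summed to 741 ± 90 in KO with oxLDL, 360 ± 27 in WT with oxLDL, 726 ± 63 in untreated KO and 643 ± 19 in untreated WT. Fabp3 made up 1.79 to 1.91% of this sum in KO with oxLDL, 31.6 to 34.4% in WT with oxLDL, 1.82 to 2.13% in untreated KO and 5.21 to 5.50% in untreated WT.

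**Figure D2:**
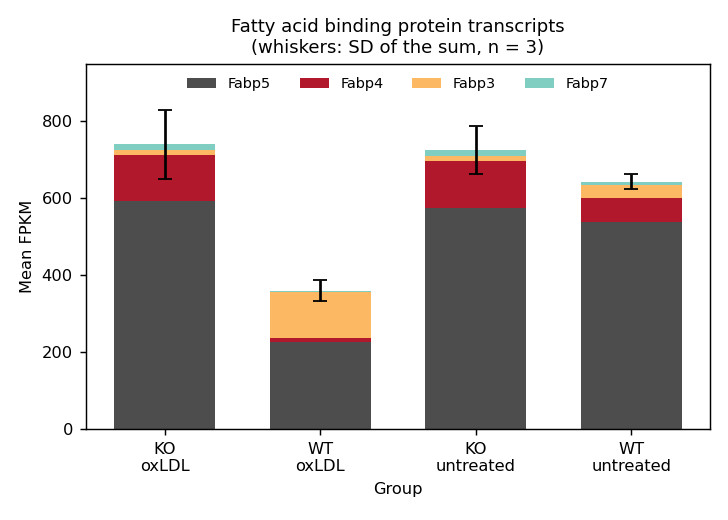
Mean FPKM of 4 fatty acid binding protein genes stacked by group (vertical axis from 0), with whiskers for the SD of the sum over n = 3 libraries. WT with oxLDL has the smallest sum, 360 FPKM, and the largest Fabp3 segment, 120 FPKM.

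Among the oxidation genes, Acadvl changed and the 2 carnitine transferase genes did so little. Cpt1a encodes the liver-type carnitine palmitoyltransferase of the outer mitochondrial membrane, the controlled entry step of long-chain oxidation (chromosome 19, 3322334 to 3385733, ENSMUSG00000024900). It had 26.5, 26.8 and 28.1 FPKM in KO with oxLDL, 19.4, 20.1 and 19.7 FPKM in WT cells with oxLDL, 27.5, 26.9 and 28.3 FPKM in untreated KO, and 28.8, 27.3 and 28.8 FPKM in untreated WT. In FPKM the WT libraries with oxLDL lay below all others, but most of that gap was taken up by the TMM scale. Cpt1a fell by 0.11 ± 0.04 on the log2 scale with oxLDL in WT (edgeR adjusted p = 0.0383), against 0.52 with library totals alone. That call was lost with DESeq2 (-0.07), in a fit of the 2 groups alone (-0.12), and without any 1 of the 3 WT libraries with oxLDL or without untreated WT replicate 1 or 3 (-0.12 to -0.09). With oxLDL, Cpt1a was 0.16 ± 0.04 log2 higher in KO than in WT (edgeR adjusted p = 0.00505), and 0.46 with library totals alone. Untreated KO and WT differed by 0.07 log2 (95% interval -0.02 to 0.16), and by -0.04 with library totals alone.

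Cpt2, the gene of the inner-membrane transferase (chromosome 4, 107903981 to 107923610, minus strand, ENSMUSG00000028607), was not called in any comparison of all 12 libraries on the TMM scale. It had 6.45, 6.90 and 6.55 FPKM in KO with oxLDL, 5.82, 4.2 and 4.32 FPKM in WT cells with oxLDL, 6.71, 7.28 and 6.81 FPKM in untreated KO, and 6.12, 7.51 and 6.90 FPKM in untreated WT. All 3 WT libraries with oxLDL lay below the other 9 in FPKM, and replicate 1 lay nearer the other groups than its 2 replicates did. The change with oxLDL in WT was -0.11 log2 (95% interval -0.35 to 0.14), and -0.27 and called without that library (edgeR adjusted p = 0.0309). KO against WT with oxLDL gave 0.17 log2 (95% interval -0.08 to 0.42), and 0.32 and called without that library (edgeR adjusted p = 0.0106). With library totals alone these changes were -0.52 and 0.47 and both were called.

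Acadvl (chromosome 11, 70010183 to 70015411, minus strand, ENSMUSG00000018574) had 11.4, 12.3 and 10.5 FPKM in KO with oxLDL, 5.80, 4.35 and 6.17 FPKM in WT cells with oxLDL, 10.9, 10.6 and 9.88 FPKM in untreated KO, and 10.6, 9.57 and 10.2 FPKM in untreated WT. All WT libraries with oxLDL lay below the other 9. Acadvl fell by 0.48 ± 0.11 on the log2 scale with oxLDL in WT (edgeR adjusted p = 0.00195), and by 0.89 with library totals alone. It was 0.75 ± 0.11 log2 higher in KO against WT with oxLDL (edgeR adjusted p = 3.23e-05), and 0.15 log2 untreated (95% interval -0.08 to 0.38). Over 2119 bases Acadvl overlaps Dvl2, a WNT pathway gene on the opposite strand, and the strand setting of the counting is not given in the sources used here. Dvl2 had 4.67 ± 0.51 FPKM in KO with oxLDL, 1.96 ± 0.10 FPKM in WT with oxLDL, 4.31 ± 0.14 FPKM in untreated KO and 4.15 ± 0.31 FPKM in untreated WT (SD, n = 3 each). Dvl2 thus moved in the same direction as Acadvl, and reads from the shared stretch cannot be told apart without the strand.

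Angptl4 encodes a secreted inhibitor of lipoprotein lipase that PPARs induce (chromosome 17, 33773750 to 33781830, minus strand, ENSMUSG00000002289). It was low, with 51 to 246 counts per library. It had 0.857, 0.865 and 0.675 FPKM in KO with oxLDL, 0.449, 0.254 and 0.281 FPKM in WT cells with oxLDL, 0.701, 0.716 and 0.600 FPKM in untreated KO, and 0.454, 0.316 and 0.208 FPKM in untreated WT. Its levels split by genotype and not by treatment label, with every KO library above every WT library. In KO against WT it was 0.98 ± 0.29 log2 higher with oxLDL (edgeR adjusted p = 0.00963) and 1.14 ± 0.29 log2 higher untreated (edgeR adjusted p = 0.00757). With limma on log2(FPKM + 1), which shrinks low genes, these were 0.44 and 0.34 and still called. The change with oxLDL in WT was 0.41 log2 on the TMM scale (95% interval -0.22 to 1.04), against 0.0085 log2 in mean FPKM.

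Pdk4, the gene of a kinase that turns off pyruvate dehydrogenase and so spares glucose (chromosome 6, 5483351 to 5496309, minus strand, ENSMUSG00000019577), was at 0 counts in 10 of the 12 libraries. KO replicate 2 with oxLDL had 2 counts and untreated WT replicate 2 had 12. A count of 0 allows up to 3 counts in a library, so no difference was detectable at this depth.

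**Figure D3:**
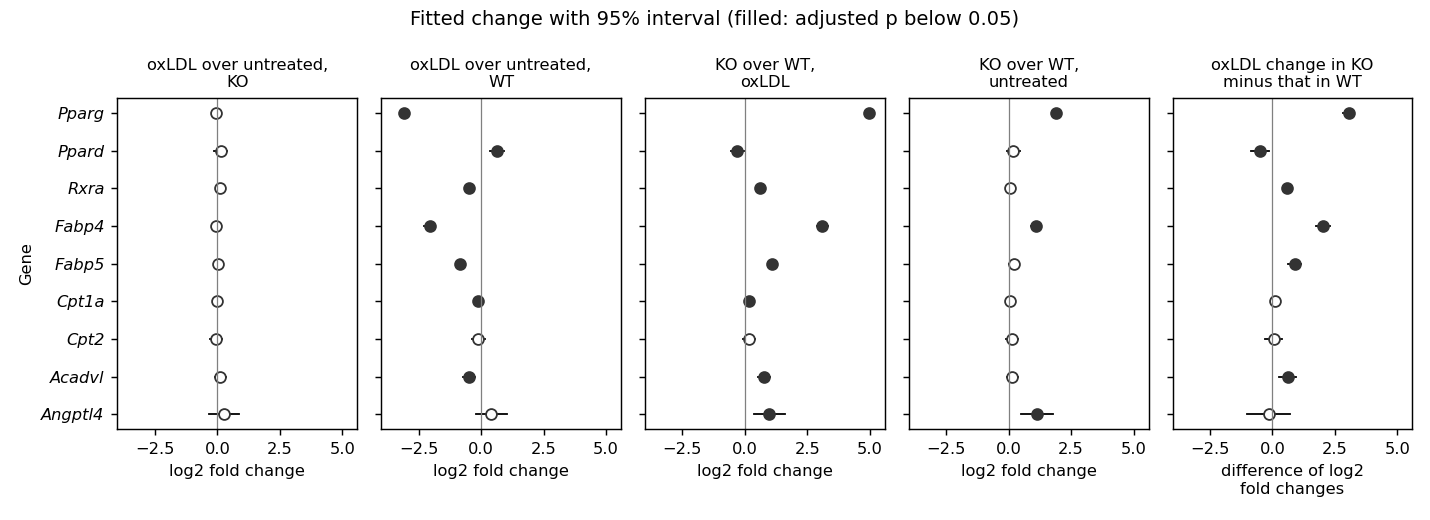
Fitted log2 change of 9 members (horizontal axes) with 95% intervals in 4 comparisons, and the difference between the oxLDL changes of KO and WT in the panel on the right. Filled points had an adjusted p below 0.05. Pparg ranges from -3.09 with oxLDL in WT to 4.96 in KO against WT with oxLDL, and no point is filled for oxLDL in KO.

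In KO macrophages no member changed with oxLDL by edgeR's test, DESeq2 called 0 as well, and in both tools 0 members had an unadjusted p under 0.05. Rxra was nearest, at an unadjusted edgeR p of 0.0505. In fits with library totals alone, limma on FPKM, the KO groups alone or a block for replicate number, 1 member was under 0.05 before adjustment and 0 after. The fitted change of Pparg was -0.04 log2 (95% interval -0.17 to 0.09), of Fabp4 -0.04 (-0.23 to 0.16), of Fabp5 0.05 (-0.14 to 0.23) and of Cpt1a -0.02 (-0.11 to 0.07). These intervals leave out changes of the size fitted in WT for Pparg, Fabp4 and Fabp5, while that of Cpt1a spans the WT value of -0.11. The widest interval was that of Angptl4, at 0.25 log2 (-0.35 to 0.86). The oxLDL change itself was tested for a difference between genotypes, where 41.7% of all genes were called, 22.1% higher and 19.6% lower. Relative to WT, the change in KO was higher for 5 members and lower for 1. The fitted KO changes of these members were small, so the differences mostly restate the WT changes. The difference was 3.05 ± 0.10 log2 for Pparg, 2.03 ± 0.13 for Fabp4, 0.89 ± 0.12 for Fabp5, 0.60 ± 0.15 for Acadvl and 0.56 ± 0.06 for Rxra (edgeR adjusted p of 1.15e-11, 1.26e-08, 2.72e-05, 0.00554 and 3.28e-06). With library totals alone, those of Acadvl and Rxra were 1.02 and 0.98. For Ppard it was -0.50 ± 0.17 (edgeR adjusted p = 0.0306). The Ppard call was lost in 11 of 19 alternatives, among them without KO replicate 1 or 2 with oxLDL, WT replicate 1 with oxLDL, untreated KO replicate 1 or 3, or untreated WT replicate 2 (-0.50 to -0.34). Cpt1a, Cpt2 and Angptl4 were not called (0.09, 0.04 and -0.16 log2), and with library totals alone Cpt1a and Cpt2 were (0.50 and 0.46).

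The wider pathway was read from 74 further genes in 5 lists, of which 64 were tested. With oxLDL in WT, 13 of the 64 were higher and 40 lower, or 82.8% called against 51.2% of all genes, with a median of -0.60 log2. Between KO and WT with oxLDL, 41 were higher and 12 lower in KO, or 82.8% called against 57.9% of all genes, with a median of 0.73. For oxLDL in KO, edgeR's test and DESeq2 both called 0, while 1 and 2 genes had an unadjusted p under 0.05. In untreated KO against WT, 19 were higher and 10 lower, or 45.3% called against 31% of all genes, and the other PPAR targets, at 35.7%, were near that background.

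Mitochondrial oxidation genes mostly fell with oxLDL in WT. Of 23 tested, 16 fell and 2 rose, with a median of -0.74 log2 against -0.06 over all genes. Hadh (-2.23 ± 0.09), a dehydrogenase of the oxidation cycle for shorter chains, Acaa2 (-1.61 ± 0.10), the thiolase that closes it, and Acad10 (-1.33 ± 0.16) fell most. Hadh had 4.75 ± 0.21 FPKM in KO with oxLDL, 0.871 ± 0.081 FPKM in WT with oxLDL, 5.12 ± 0.33 FPKM in untreated KO and 5.46 ± 0.26 FPKM in untreated WT. The 2 rises rested on the scale: Acadl, a long-chain dehydrogenase, was at 0.44 with TMM and 0.03 with library totals, and Hadha, a subunit of the trifunctional protein, at 0.10 and -0.31. The Hadha call was also lost in 11 of the 12 fits without 1 library (0.079 to 0.108), all but that without KO replicate 3 with oxLDL. In KO against WT with oxLDL 16 were higher and 1 lower, led by Hadh (2.14 ± 0.09), Acaa2 (1.88 ± 0.10) and Crat (1.86 ± 0.08), which moves acetyl groups onto carnitine. The lower one was Eci2, an isomerase for unsaturated chains, at -0.51 with TMM and -0.20 and not called with library totals. In untreated KO against WT 8 were higher and 3 lower. Both trifunctional protein genes were among the higher, Hadhb by 0.89 ± 0.08 and Hadha by 0.65 ± 0.04, with Crat at 0.57 ± 0.08. Acat1 (-0.48 ± 0.10), Eci2 (-0.46 ± 0.09) and Eci1 (-0.39 ± 0.13) were the lower ones. The Eci1 call was lost without any 1 of the untreated KO libraries or without untreated WT replicate 3 (-0.429 to -0.329).

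Peroxisomal oxidation genes did likewise, with 12 of 14 lower and 1 higher with oxLDL in WT (median -0.77 log2). Abcd2, a peroxisomal transporter of very long-chain fatty acids, had 8.87 ± 0.22 FPKM in KO with oxLDL, 0.239 ± 0.041 FPKM in WT with oxLDL, 8.89 ± 0.64 FPKM in untreated KO and 4.79 ± 0.69 FPKM in untreated WT (SD, n = 3 each). It fell by 3.90 ± 0.13 on the log2 scale with oxLDL in WT and was higher in KO, by 4.89 ± 0.13 with oxLDL and 1.0 ± 0.10 untreated (edgeR adjusted p = 3.53e-12, 1.21e-13 and 1.89e-06). The oxidase gene Acox3 (-1.71 ± 0.05) and the bifunctional enzyme gene Ehhadh (-1.56 ± 0.25) fell as well with oxLDL in WT. The thiolase gene Acaa1a was at 0.34 with TMM and -0.07 with library totals. With oxLDL 11 were higher in KO than in WT, among them Acox3 (2.30 ± 0.05) and Ehhadh (1.47 ± 0.25), and Acaa1a was lower (-0.77 ± 0.08). In untreated KO against WT 5 were higher, with Acox3 at 0.59 ± 0.05, and Acaa1a was lower (-0.48 ± 0.08).

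Other PPAR targets went both ways. With oxLDL in WT 4 of 14 rose and 8 fell, and in KO against WT with oxLDL 9 were higher and 4 lower. Acsl1, which activates long-chain fatty acids with coenzyme A, ran opposite to the oxidation genes, with 5.70 ± 0.37 FPKM in KO with oxLDL, 190 ± 3.0 FPKM in WT with oxLDL, 5.50 ± 0.37 FPKM in untreated KO and 68.2 ± 1.8 FPKM in untreated WT (SD, n = 3 each). It rose by 1.88 ± 0.06 log2 with oxLDL in WT and was lower in KO, at -5.36 ± 0.06 with oxLDL and -3.53 ± 0.06 untreated. Hilpda, a lipid droplet protein that inhibits triglyceride breakdown (1.96 ± 0.13), and Nr1h3, the liver X receptor α gene (0.99 ± 0.06), rose too with oxLDL in WT and were lower in KO against WT with oxLDL (-1.52 ± 0.13 and -1.17 ± 0.06). The pyruvate dehydrogenase kinase genes Pdk2 (-2.52 ± 0.19) and Pdk1 (-0.58 ± 0.08) and the thioesterase gene Acot2 (-2.21 ± 0.31) fell with oxLDL in WT. Acot2 (2.86 ± 0.31), Pdk2 (2.76 ± 0.19) and Acot1 (2.66 ± 0.79, on 146 counts in KO and 16 in WT) were higher in KO against WT with oxLDL. In untreated KO against WT, the fatty acid receptor Cd36 (0.92 ± 0.05), the droplet coat gene Plin2 (0.64 ± 0.04) and the lipase gene Lpl (0.48 ± 0.04) were higher.

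Receptor partners and coregulators had a median of -0.06 log2 with oxLDL in WT. There, 5 of 11 rose, led by Pprc1 (0.86 ± 0.08), Ncoa1 (0.63 ± 0.06) and Med1 (0.54 ± 0.05), and 3 fell. The genes that fell were the PPAR coactivator genes Ppargc1a (-2.34 ± 0.69) and Ppargc1b (-0.97 ± 0.14) and the retinoid X receptor gene Rxrb (-0.70 ± 0.09). This balance rested on the scale: with library totals alone 3 rose, 7 fell and the median was -0.47 log2. Pprc1, Ncoa1 and Med1 were then at 0.45, 0.22 and 0.13, and Ncor1 turned from 0.25 to -0.16. Ppargc1a was scarce, with 366 counts over the group in KO with oxLDL, 14 in WT with oxLDL, 310 in untreated KO and 106 in untreated WT. Its fall with oxLDL in WT was not called without untreated WT replicate 1 (-1.82) and was -3.74 without WT replicate 2 with oxLDL, and with limma on log2(FPKM + 1) it was -0.08. With oxLDL 4 were higher in KO than in WT, among them Ppargc1a (4.13 ± 0.69), Rxrb (0.85 ± 0.09) and Ppargc1b (0.63 ± 0.14), and 5 lower, among them Ncoa1 (-1.10 ± 0.06), Pprc1 (-0.83 ± 0.08) and the corepressor gene Nrip1 (-0.79 ± 0.06). In untreated KO against WT 1 was higher and 4 were lower. Ppargc1a was at 1.56 ± 0.56. That call was lost with library totals alone (1.46), without a filter on low counts, and with a block for replicate number. It was also lost in 9 of the 12 fits without 1 library (1.3 to 1.64). These were each fit that left out a KO library, WT replicate 3 with oxLDL, or untreated WT replicate 2 or 3. In the same comparison Ncoa1 (-0.47 ± 0.06), Ppargc1b (-0.47 ± 0.13) and Med1 (-0.19 ± 0.05) were lower. The Ppargc1b call was lost without untreated KO replicate 3 or untreated WT replicate 3 (-0.38 and -0.333), and that of Med1 without untreated KO replicate 1 (-0.162). Ppara, the gene of the third PPAR, was not tested, with a mean of at most 0.0174 FPKM in any group.

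**Figure D4:**
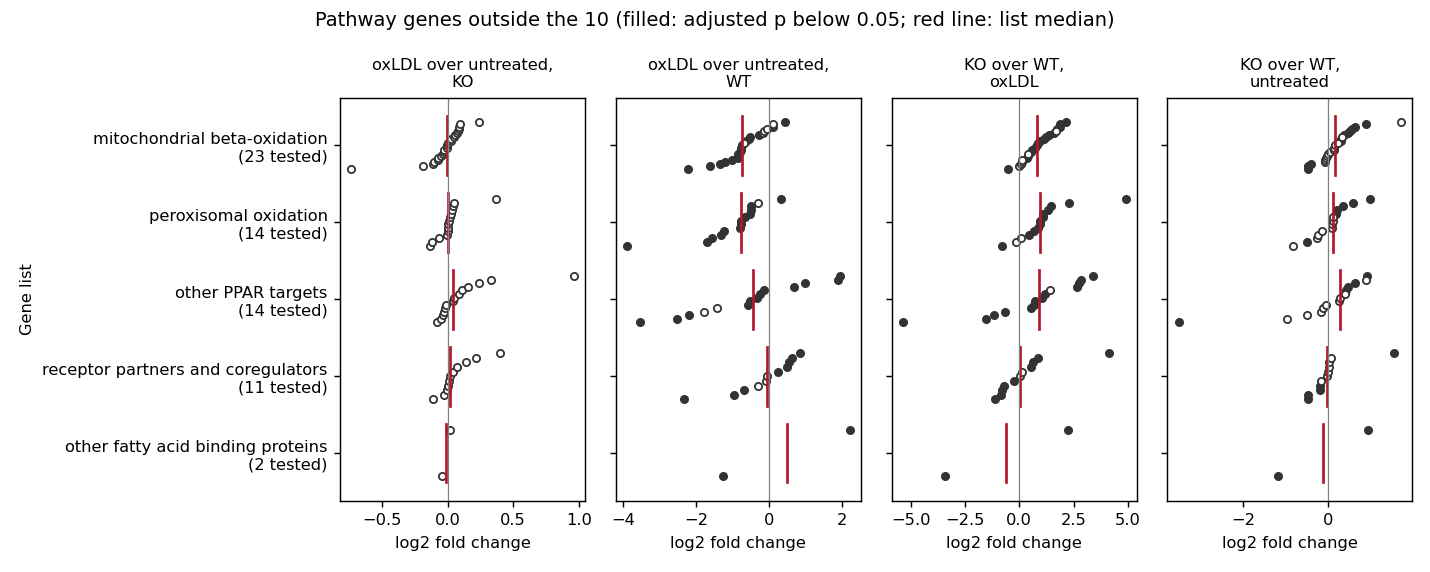
Fitted log2 changes (horizontal axes, each panel with its own range) of the pathway genes outside the 10, by list, with the list median as a red line. Filled points had an adjusted p below 0.05. The mitochondrial and peroxisomal lists sit left of 0 with oxLDL in WT (medians -0.74 and -0.77) and right of 0 in KO against WT with oxLDL (0.84 and 0.96).

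The oxLDL change differed between genotypes for 49 of the 64 pathway genes, 37 of them higher in KO relative to WT and 12 lower, which is 76.6% called against 41.7% of all genes. Mitochondrial genes gave 16 higher and 1 lower, peroxisomal genes 10 and 1, other targets 6 and 4, and receptor partners 4 and 5. Abcd2 (3.89 ± 0.16), Pdk2 (2.50 ± 0.25), Hadh (2.12 ± 0.12) and Acox3 (1.71 ± 0.07) were among the higher, and Fabp3 (-2.26 ± 0.13), Acsl1 (-1.83 ± 0.08) and Hilpda (-1.81 ± 0.18) among the lower. The lower peroxisomal gene was Acaa1a, at -0.29 ± 0.11. Its call was lost in 9 of the 12 fits without 1 library (-0.307 to -0.234), all but those without KO replicate 1 or WT replicate 2 with oxLDL or untreated WT replicate 3, and its value was 0.12 with library totals alone. On that scale mitochondrial genes gave 20 higher and 0 lower, peroxisomal genes 12 and 0, other targets 7 and 3, and receptor partners 6 and 1.

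The genes most like 3 members in their profile were found by Pearson correlation of log2 counts, scaled for library size, over the 12 libraries. The libraries fall into 3 sets (KO, untreated WT, and WT with oxLDL), so this likeness is mostly one of group levels. For Pparg these were Cd28, a costimulatory receptor best known from T cells, Socs6, of a family of signalling brakes, and Rab7b, a GTPase of late endosomes (r from 0.9986 to 0.9988). Cd28 had 11.1 ± 0.20 FPKM in KO with oxLDL, 0.0842 ± 0.0059 FPKM in WT with oxLDL, 12.03 ± 1.3 FPKM in untreated KO and 1.92 ± 0.15 FPKM in untreated WT. Fabp4 was most like Ostm1, Oxct1, which starts ketone body use, and the kinase gene Tec (r = 0.999, 0.998 and 0.997). Angptl4 was less closely matched, by Ffar4, a long-chain fatty acid receptor, Lasp1, an actin-binding protein, and Sez6l2 (r = 0.934, 0.93 and 0.926). Of these, Ffar4 was at or below 0.205 FPKM in every group mean.

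**Figure D5:**
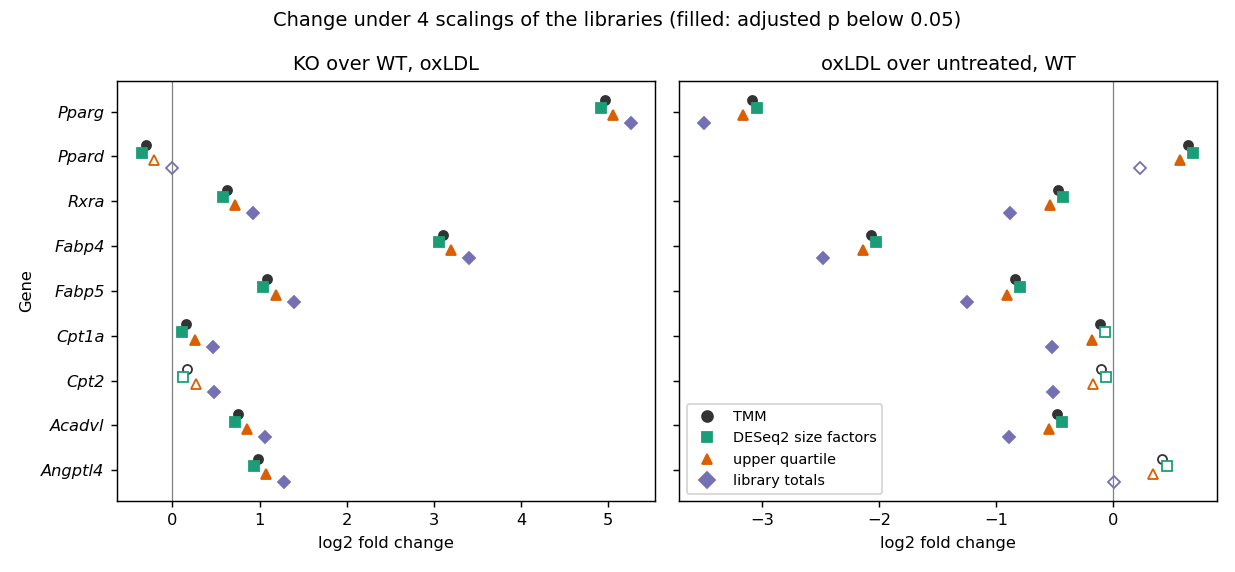
Fitted log2 change of 9 members (horizontal axes) under 4 ways of scaling the libraries, for KO against WT with oxLDL and for oxLDL against untreated in WT. Filled symbols had an adjusted p below 0.05. Pparg, Fabp4, Fabp5, Rxra and Acadvl keep their direction and call under all 4, while Ppard, Cpt1a and Cpt2 change call.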

How the data were processed

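The deposited table holds, per the file headers, raw read counts and FPKM of each gene in 12 libraries, both made by the authors. The submitters' processing notes name HISAT2 2.0, Bowtie 0.12.2 and build mm8 without their roles, while the sources used here name no counting tool, annotation or strand setting. Of 21990 genes matched by Entrez identifier, 99.91% overlapped their position on GRCm38.p6, so positions are given as GRCm38. All per-sample columns were used.

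Counts were fitted with edgeR 4.0.16 (R 4.3.3) by the quasi-likelihood test on 4 groups together, with TMM scaling, filterByExpr (17291 genes kept) and Benjamini-Hochberg adjustment over all genes kept. SE are the fitted change divided by the root of its F statistic. DESeq2 1.42.0 and limma 3.58.1 served as alternatives, with other scalings, no filter, a replicate block and each library left out. The code was tested on simulated data.

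The members and lists were chosen with earlier results of these data known. Named pathway genes are the called genes of each list with the largest changes, up to 3 in each direction, with a mean of at least 20 counts. The result of 1 gene that this rule named is not reported here. For Pparg, Fabp4 and Angptl4 the 3 genes of highest correlation are named as well. The labels do not say that replicates came from separate animals, so p-values measure the spread between these libraries. With 3 libraries against 3, an exact permutation test cannot go below p = 0.1. Libraries of the same group differed by 11.6 to 34.8 times counting error, so the spread between libraries, with n = 3, limits precision more than depth does.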

Additional observations from a re-analysis of the deposited data

Results flagged for a closer look

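For 6 members the oxLDL change differed between KO and WT by the test of that difference in edgeR. Subtracting the WT change from the KO change gave 3.05 log2 for Pparg, 2.03 for Fabp4, 0.89 for Fabp5, 0.60 for Acadvl and 0.56 for Rxra, and -0.50 for Ppard. For Pparg the fitted changes behind it were -0.04 in KO and -3.09 in WT, and for Fabp4 -0.04 and -2.06. The differences thus mostly restate the WT changes. Whether the KO libraries were treated as labelled cannot be checked from the sources used here. The Ppard difference was lost in 11 of 19 alternatives. Groups of 3 libraries are too small for a test of single libraries that stand apart.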

How the results depend on the processing

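The number of members called was 0 for oxLDL in KO under all 20 alternatives, 6 to 7 for oxLDL in WT (7 as reported), 7 to 8 for KO against WT with oxLDL (8), 3 to 4 untreated (3) and, over 19 alternatives, 5 to 7 for the difference between the oxLDL changes (6). Direction and call of Pparg, Fabp4, Acadvl and Rxra held in all of these wherever they were called. Ppard in KO against WT with oxLDL turned from -0.31 to 0.0017 and 0.0034 log2 with limma on FPKM plus 1 and plus 0.1, which carry no TMM correction. Over all genes, oxLDL in KO gave 2 calls, against 110 with DESeq2, 61 in a fit of the KO groups alone, 1 without a filter, 1 and 0 with limma on FPKM (plus 1 and plus 0.1) and 0 with the replicate block. Fits that dropped 1 library ranged over 0 to 57 calls: 57 without WT replicate 1 with oxLDL, 7 without WT replicate 2 with oxLDL, 6 without untreated WT replicate 2, and 0 without KO replicate 3 with oxLDL, WT replicate 3 with oxLDL, untreated KO replicate 1 or 2, or untreated WT replicate 1 or 3. The cause was not tested. Same-numbered libraries did not deviate together (correlations -0.16 to 0.05, and 3 of 12 libraries correlated best with their own number). With 3 libraries in each group this cannot exclude a pairing by number, and replicate 2 was the shallowest in both WT groups. The replicate block left the member counts at 0, 7, 8, 3 and 6. The counts over the pathway genes, an alternative set added after seeing the data, stayed within 24 to 57 where genes were called. Depth limits Pdk4, at 0 to 12 counts, and Angptl4, at 51 to 246.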
